A study of Mus musculus with 2 samples.

Results

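The GIMAP genes encode GTPases of immunity-associated proteins, a family of membrane-linked, nucleotide-binding proteins of lymphocytes whose genes lie side by side in a cluster on mouse chromosome 6. The 8 listed members were Gimap1, Gimap3, Gimap4, Gimap5, Gimap6, Gimap7, Gimap8 and Gimap9. They were found among the array probes by gene name, accession and synonym. This gave 10 probes for 7 of the 8 genes, of 41174 probes for 27595 named genes in all, and 6 probes of 5 members were bright enough to be kept in the test. No probe was matched to Gimap8, which was not analysed here.

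RNA of double-positive (DP) thymocytes was measured on 2 arrays with 2 colours. Each array compared Bcl11bF/FCD4Cre/Tcra-/- cells, labelled with Cy5, with TCRa-/- cells, labelled with Cy3. The first carry floxed alleles of Bcl11b, a DNA-binding regulator of the T lineage, and Cre under Cd4 control sequences. Tcra is missing in both groups, and without this chain thymocytes are not selected. Each group had 2 samples, named biological replicates 1 and 2, and the labels give neither the animals' age, strain background or number per sample nor how DP cells were isolated. Neither Cre nor floxed alleles appear in the label of the controls, so an effect of Cre and loss of Bcl11b cannot be told apart. The dyes were not swapped, so a dye effect of a probe and a difference between genotypes cannot be told apart either.

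GIMAP proteins act in the survival and upkeep of lymphocytes, and several of the genes are known in mouse for increasing in expression as thymocytes pass from the DP to the single-positive stage. Gimap5, the best studied member, sits on lysosomal membranes and is needed for long life of peripheral T cells, as loss-of-function mice and rats show. Gimap3 is its close relative in rodents, Gimap1 is needed for mature B and T cells, Gimap4 promotes death of T cells, and Gimap6 takes part in autophagy through a GABARAP-like partner.

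The RefSeq windows around the start sites of the 4 brightly measured members are shown because these genes lie in one cluster and yet did not read alike on the arrays. Each window runs from 250 bases before to 50 bases after the annotated start in GRCm38.p6, and is written 5′ to 3′ on the strand of the gene. The array probes have positions in another build, mm8, and the 2 sets of positions are not to be compared. Capitals mark matches, on both strands, to 5 short motifs: TGTGGT (Runx), AGGAAG (ETS), CAGGTG (E-box of E proteins), CTTTGA (TCF) and CCACCC (KLF). A match on the opposite strand appears as its reverse complement. No match overlaps another in these windows.
Gimap5, chr6:48745947-48746246, plus strand: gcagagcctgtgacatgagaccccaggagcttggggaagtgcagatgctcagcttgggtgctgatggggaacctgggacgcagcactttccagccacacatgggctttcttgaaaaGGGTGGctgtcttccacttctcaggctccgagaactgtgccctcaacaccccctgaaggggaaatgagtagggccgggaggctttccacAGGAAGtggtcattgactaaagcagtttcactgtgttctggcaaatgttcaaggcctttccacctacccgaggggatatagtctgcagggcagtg
Gimap1, chr6:48738797-48739096, plus strand: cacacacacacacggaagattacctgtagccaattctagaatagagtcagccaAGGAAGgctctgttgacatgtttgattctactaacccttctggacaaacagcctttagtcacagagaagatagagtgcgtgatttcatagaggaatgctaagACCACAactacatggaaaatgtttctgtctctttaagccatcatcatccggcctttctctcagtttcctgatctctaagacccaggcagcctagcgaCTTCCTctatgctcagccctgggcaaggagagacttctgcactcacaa
Gimap9, chr6:48675885-48676184, plus strand: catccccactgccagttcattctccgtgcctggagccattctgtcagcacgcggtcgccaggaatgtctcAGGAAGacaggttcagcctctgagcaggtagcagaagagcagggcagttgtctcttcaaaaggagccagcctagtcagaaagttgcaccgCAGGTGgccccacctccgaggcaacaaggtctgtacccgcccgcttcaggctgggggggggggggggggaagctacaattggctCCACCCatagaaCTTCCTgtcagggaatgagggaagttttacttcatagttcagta
Gimap6, chr6:48708195-48708494, minus strand: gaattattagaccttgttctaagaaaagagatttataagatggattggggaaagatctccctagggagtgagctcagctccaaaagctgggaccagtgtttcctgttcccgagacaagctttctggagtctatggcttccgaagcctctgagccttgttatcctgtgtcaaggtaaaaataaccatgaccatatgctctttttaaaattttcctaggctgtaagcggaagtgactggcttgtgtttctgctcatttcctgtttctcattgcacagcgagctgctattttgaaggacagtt
The Gimap5 window held 1 ETS match, starting 45 bases before the start site, and 1 KLF match, starting 134 bases before it. The Gimap1 window held 2 ETS matches and 1 Runx match. The Gimap9 window held 2 ETS matches, 1 KLF match and 1 E-box match, and the Gimap6 window held 0 of the 5 motifs. Only the exact letters were counted, so a near form such as cggaag, which the Gimap6 window holds, was not marked. ETS letters stand in 35.4% of all 32851 windows of this length, KLF letters in 31.5%, E-box letters in 20.2%, Runx letters in 16.8% and TCF letters in 16.0%. GC content was 55.7% for Gimap5, 46.0% for Gimap1, 57.3% for Gimap9 and 43.3% for Gimap6, beside a median of 52.7% over all windows. These matches are a description of letters and were not tested against the array values.

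Gimap5 stood higher in the Bcl11b-deficient cells on both arrays, by both of its probes. The other 4 measured members, Gimap1, Gimap6, Gimap7 and Gimap9, had mean log2 ratios between -0.28 and -0.14. Of these, Gimap7 was dim and was kept through its signal in the control cells alone. Gimap3 and Gimap4 were not well above background in either genotype. In these bulk samples, fewer cells of a type and less RNA per cell cannot be told apart. The direction of Gimap1, Gimap6 and Gimap9 depended on the scaling, and all 3 turned positive when arrays were centred on their median in place of loess. No GIMAP probe passed the test over all probes.

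The brighter Gimap5 probe lies at chr6:48683088-48683147 in mm8, the build printed in the array files. Its processed signal, which Feature Extraction corrects for background and dye, was 2788 and 2774 in the deficient cells of replicates 1 and 2, against 1715 and 1380 in the control cells. The deficient sample lay above its control on both arrays, as it did for 33.5% of all genes by processed signals. The loess-normalised log2 ratios were 0.66 (replicate 1) and 0.99 (replicate 2), averaging 0.82 ± 0.11 (SE, n = 2 arrays), or 1.77-fold. Its limma adjusted p was 0.0987 over all kept probes. Ranked by ratio, Gimap5 stood at place 325 of 14923 genes, each taken by its brightest kept probe, and 2.17% of genes had a higher ratio.

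The dimmer Gimap5 probe lies at chr6:48676977-48677036, 6111 bases from the first probe and between it and the Gimap1 probe. Its processed signal was 530.1 and 716 in the deficient cells, against 161 and 113 in the control cells. The deficient sample lay above its control on both arrays, and every sample was well above background. By loess log2 ratio, 36.6% of all kept probes were higher on both arrays. Its log2 ratio was 1.15 and 1.69, with a mean of 1.42 ± 0.16 (SE, n = 2 arrays), or 2.68-fold, at place 90 of 21539 kept probes. Its limma adjusted p was 0.0936. Processed signals gave folds of 3.30 and 6.31 for this probe and 1.63 and 2.01 for the brighter one, so at the dim probe the size depends on how background is removed. The dimmer probe exceeded the brighter one by 0.49 and 0.71 in log2 ratio on the 2 arrays. Whether the dimmer probe belongs to an exon, an intron or another transcript of the locus was not examined, as no mm8 annotation was used here.

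Over all 21539 kept probes limma called 0, or 0%, at an adjusted p under 0.05, while 5824 (27%) had an unadjusted p under 0.05. Gimap5 is thus one of many genes that passed unadjusted and missed the adjusted threshold. Separate-channel limma called 1231 probes (5.72%), among them both Gimap5 probes, with adjusted p = 0.0363 for the brighter and 0.0294 for the dimmer. Median centring called 972 probes (4.51%), 848 of them higher and 124 lower, and again both Gimap5 probes (limma adjusted p = 0.0469 and 0.0404). Processed signals called 0.139% of probes, and 0.0789% were called from the value table and 0% by centring on probes of like intensity, with no GIMAP probe among them. These settings used the same 2 arrays. With 2 arrays, an exact sign-flip test cannot give a two-sided p below 0.5.

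**Figure D1:**
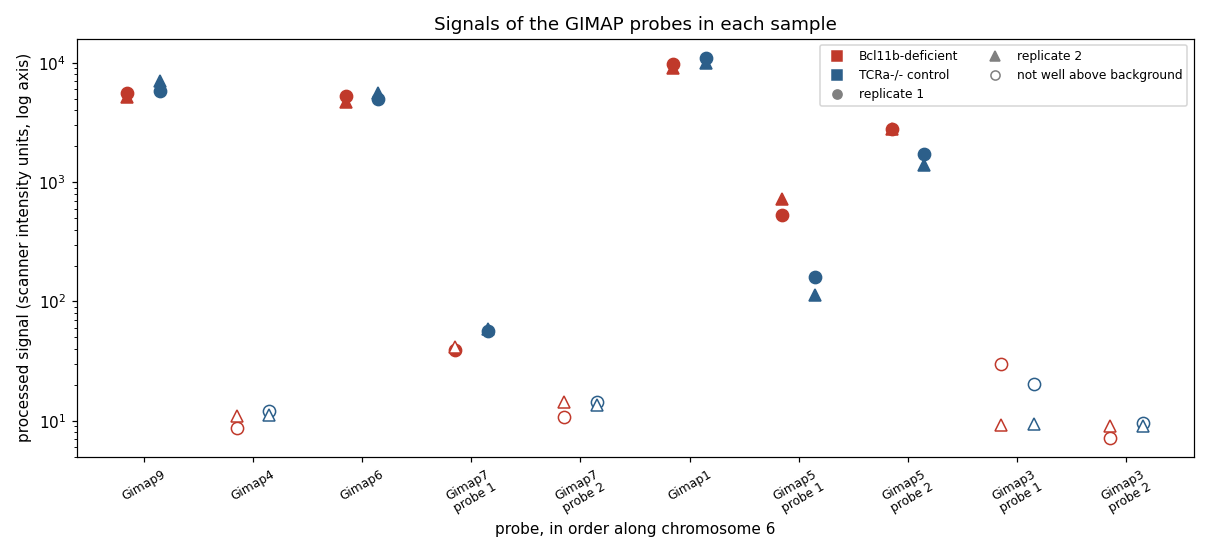
Processed signal in scanner intensity units (log axis) of the 10 GIMAP probes, in order along chromosome 6, in Bcl11b-deficient (red) and TCRa-/- control (blue) samples of replicates 1 (circles) and 2 (triangles). Open symbols were not well above background. Both Gimap5 probes have the red symbols above the blue ones, the Gimap9, Gimap6 and Gimap1 symbols lie close together, and the Gimap4 and Gimap3 symbols are all open.

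Gimap1 was measured at chr6:48672996-48673055. Processed signals were 9800.2 and 9126 in deficient cells, against 11021 and 10050.2 in control cells. The deficient sample lay below its control on both arrays, by a small margin, as it did for 41.0% of all genes by processed signals. The log2 ratio was -0.19 and -0.13, with a mean of -0.16 ± 0.07 (SE, n = 2 arrays; limma adjusted p = 0.253). Median centring turned it to 0.31, again not called (limma adjusted p = 0.149).

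Gimap9, at chr6:48607426-48607485, had processed signals of 5609 and 5170.1 in deficient cells, against 5863 and 7083 in control cells. The deficient samples lay below the controls on both arrays, mainly on replicate 2. Its log2 ratio was -0.11 and -0.46, with a mean of -0.28 ± 0.12 (SE, n = 2 arrays; limma adjusted p = 0.235). Median centring gave 0.09 (limma adjusted p = 0.530).

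Gimap6, at chr6:48631385-48631444, had processed signals of 5271 and 4680.2 in deficient cells, against 4962 and 5613 in control cells. The deficient sample lay above its control on replicate 1 and below it on replicate 2. The log2 ratio was 0.01 and -0.28, with a mean of -0.14 ± 0.10 (SE, n = 2 arrays; limma adjusted p = 0.447). Median centring gave 0.23 (limma adjusted p = 0.184).

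Gimap7, which encodes a GTPase that in human pairs with other family members, had 1 kept probe, at chr6:48648426-48648485. Its processed signal was 39.1 and 41.8 in deficient cells, against 56.0 and 59.1 in control cells. These signals were well above background in both control samples but in only 1 of the 2 deficient samples. The log2 ratio was -0.17 and -0.12, with a mean of -0.14 ± 0.07 (SE, n = 2 arrays; limma adjusted p = 0.282), and processed signals gave -0.51. The other Gimap7 probe, at chr6:48653858-48653917, was not well above background in any of the 4 samples.

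Gimap3 and Gimap4 were not well above background in any of the 4 samples, by the flag of Feature Extraction. The Gimap3 probes at chr6:48694611-48694670 and chr6:48694621-48694680 had mean signals of 916 to 1044 in deficient cells and 630 to 761 in control cells. The Gimap4 probe at chr6:48620453-48620512 had 825 and 812 in deficient cells, against 611 and 595 in control cells. For negative control spots the median signal was 923 and 1036 (deficient) and 696 and 732 (control). No ratio is therefore given for Gimap3 and Gimap4, and differences in them were not detectable at this signal. The sequences of the probes were not used here, so cross-hybridisation between the related Gimap3 and Gimap5 transcripts was not tested.

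Read as a family, 1 of 5 measured members was higher on both arrays, beside 36.4% of all 14923 genes. Lower on both arrays were 3 members, beside 38.5% of genes, and Gimap6 had opposite signs, as did 25.1% of genes. By probe, 2 of 6 kept GIMAP probes, both of Gimap5, were higher on both arrays, beside 36.6% of all kept probes. A ratio of 2-fold or more on both arrays was reached by no member's brightest probe, while 0.818% of genes were that much higher and 0.275% that much lower. The median over the 5 was -0.14, with -0.11 on replicate 1 and -0.13 on replicate 2, and the median over all genes was -0.02 and 0.01 on the same arrays. Gimap7 is 1 of the 3 lower members and its ratio is the median, and it was kept through the control channel alone. With both genotypes required to be well above background it dropped out, which left 2 of 4 members lower and a median of -0.15. Median centring gave 4 members higher and 1 lower, with a median of 0.23, and moved the medians of all genes to 0.08 and 0.17. Log2 ratios within 0.5 of 0 on both arrays were seen for 4 of 5 members and for 84% of all genes. These shares do not set the family apart from other genes.

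**Figure D2:**
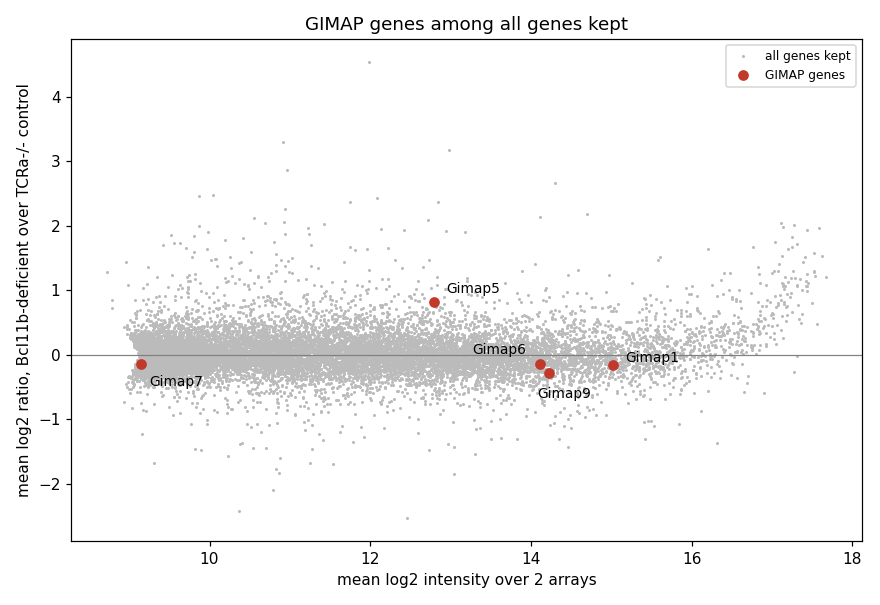
Mean log2 ratio of Bcl11b-deficient over TCRa-/- control (y axis) against mean log2 intensity over the 2 arrays (x axis) for 14923 genes (grey) and the 5 measured GIMAP genes (red), each by its brightest kept probe. Gimap5, at 0.82, lies above most of the grey points of like intensity, while the other 4 lie between -0.28 and -0.14.

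Within each array Gimap5 had a higher log2 ratio than Gimap1, Gimap6 and Gimap9. The difference in log2 ratio was 0.65 and 1.27 against Gimap6, 0.85 and 1.12 against Gimap1, and 0.77 and 1.44 against Gimap9, on replicates 1 and 2. No difference is given against Gimap7, which missed the background threshold in the deficient cells of replicate 2. A difference within an array does not depend on how that array is centred, but it does on corrections that vary with intensity, since Gimap1, Gimap6 and Gimap9 were brighter than Gimap5. With median centring, which makes no such correction, Gimap5 still had the highest mean ratio of the 5, at 1.06. The difference between members was not tested beyond these values.

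**Figure D3:**
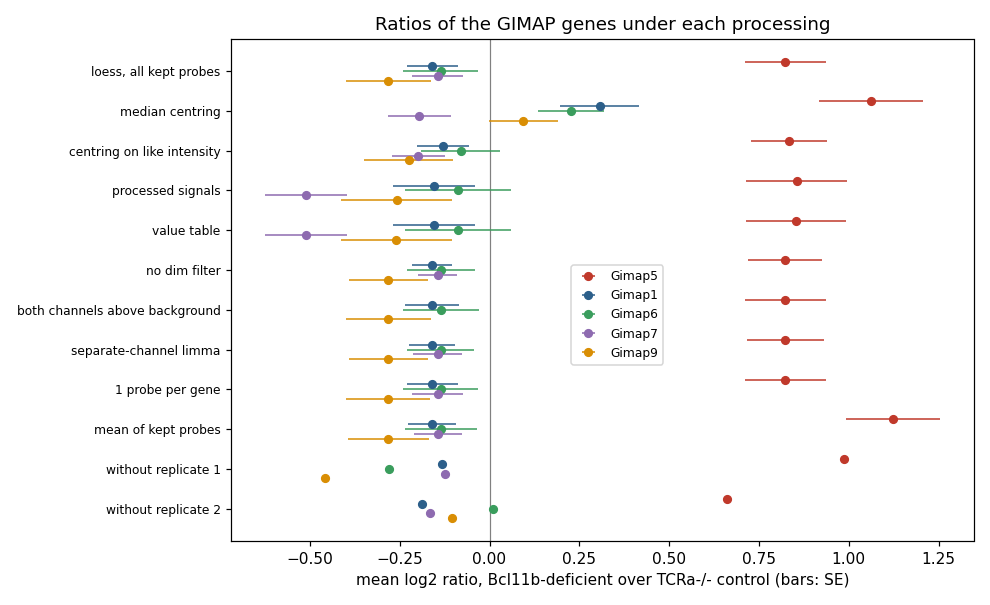
Mean log2 ratio of Bcl11b-deficient over TCRa-/- control (x axis) of the 5 measured GIMAP genes under each processing (rows), with SE as bars where a fit gives one. Gimap5 lies between 0.66 and 1.12 in every row, whereas Gimap1, Gimap6 and Gimap9 lie above 0 with median centring, as does Gimap6, at 0.0089, without replicate 2.

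Around the cluster, 27 other genes had 39 probes within 500 kb of the GIMAP probes, and 15 of these genes were kept. Higher on both arrays were 3 and lower were 8, beside 36.4% and 38.5% of all genes. Among the higher, Doxl1 was kept through its signal in the deficient cells alone. Among the lower, Sspo was kept through its signal in the control cells alone. The median of the kept neighbours was -0.07, and limma called 0 of them. Repin1, which encodes a zinc finger protein, had log2 ratios of 0.54 and 0.90 (mean 0.72 ± 0.12, SE, n = 2 arrays; limma adjusted p = 0.105) at -79.3 kb from the Gimap9 probe, counted away from Gimap5. Rarres2, the gene of the chemoattractant chemerin, had 0.88 and 0.59 (mean 0.74 ± 0.10). On the other side, Tmem176b had -0.48 and -0.32 and its neighbour Tmem176a had -0.18 and -0.25. Separate-channel limma, which called 5.72% of all kept probes, called Repin1 and Krba1, and Krba1 had a mean of -0.49. Repin1 and Rarres2 were positive and Tmem176a, Tmem176b and Krba1 negative under each of the 5 other scalings and fits compared. Higher and lower genes thus lay among each other along the locus, and the genes between Repin1 and Gimap5 that were kept, Gimap9, Gimap6, Gimap7 and Gimap1, did not share the ratio of either.

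**Figure D4:**
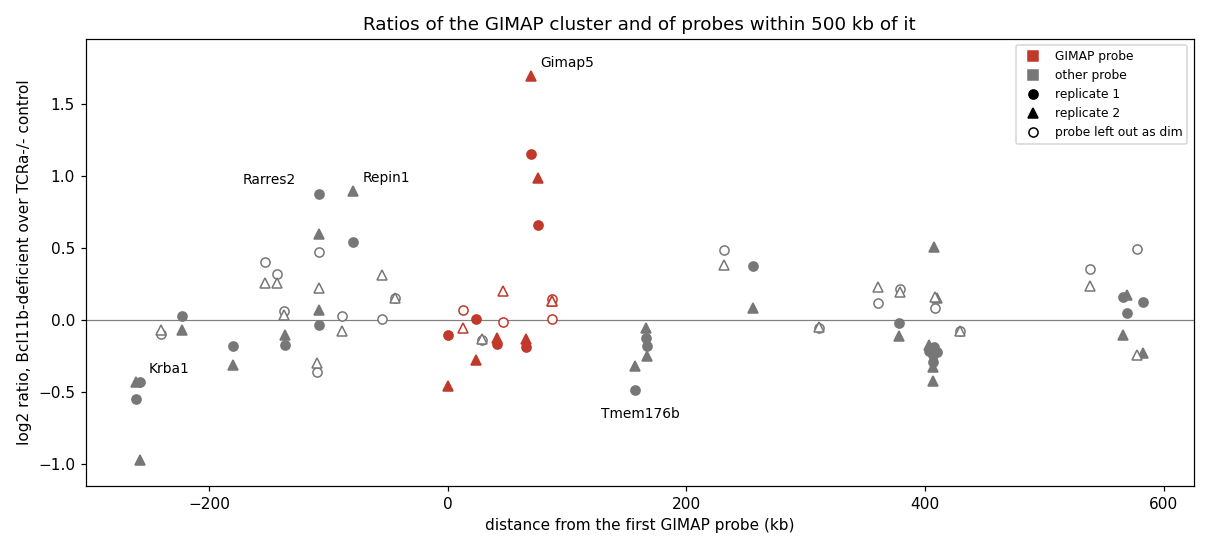
Log2 ratio of Bcl11b-deficient over TCRa-/- control (y axis) of GIMAP probes (red) and of other probes within 500 kb (grey) against distance in kb from the first GIMAP probe (x axis), on replicates 1 (circles) and 2 (triangles). Open symbols are probes left out as dim. The 4 values of the Gimap5 probes, 0.66 to 1.69, stand above the other GIMAP probes.

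Genes of proteins and processes reported to work with GIMAP proteins were measured beside them. All 13 on the list were kept. Higher on both arrays were 6 and lower were 5, beside 36.4% and 38.5% of all genes. The median of the list was 0.07, and limma called 0. Sqstm1, the gene of an autophagy receptor, had 0.67 and 0.74 (mean 0.71 ± 0.07, SE, n = 2 arrays; limma adjusted p = 0.0922). Separate-channel limma and median centring called Sqstm1 alone among the 13, beside 5.72% and 4.51% of all kept probes. Gabarapl2, the partner of Gimap6, had 0.10 and 0.18. Of the BCL2 family, the death effectors Bax and Bak1 had means of 0.25 and 0.22. The survival genes Bcl2, Bcl2l1 and Mcl1 had 0.02, 0.12 and -0.17. The BH3-only gene Bcl2l11 had -0.26, or 0.08 with median centring. Gsk3b, a kinase that Gimap5 restrains in T cells, had -0.24. With median centring 1 of the 13 was lower and 10 higher on both arrays, beside 23.5% and 55.0% of all genes.

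Genes of mature thymocytes were listed because GIMAP genes are known to increase with maturation. This list and that of the partners were chosen with earlier results of these data known, so their counts are a description and not a test. Of 12, 11 were kept, with a median of 0.56, and limma called 0. Higher on both arrays were 7 and lower 3, beside 36.4% and 38.5% of all genes. The ratios of this list ranged widely. Itgb7, an integrin subunit, had 2.08 and 3.24, the interleukin 7 receptor gene Il7r 1.48 and 1.71, and the interferon gamma receptor gene Ifngr1 1.03 and 1.49. Emb, the gene of the adhesion protein embigin, had 0.89 and 1.03, and Ms4a4b had 0.90 and 0.70. Ms4a6b, of the same family as Ms4a4b, was the lowest of the list, with -0.14 and -0.39, or 0.05 and -0.05 with median centring. Ccr7, a chemokine receptor gene, had -0.02 and -0.01. Klf2, the regulator of thymic egress, had 0.89 and 0.24. Separate-channel limma called 5 of the 11, and median centring 6, beside 5.72% and 4.51% of all kept probes. Gimap5, at 0.82, lay between Emb and Ms4a4b in mean ratio.

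**Figure D5:**
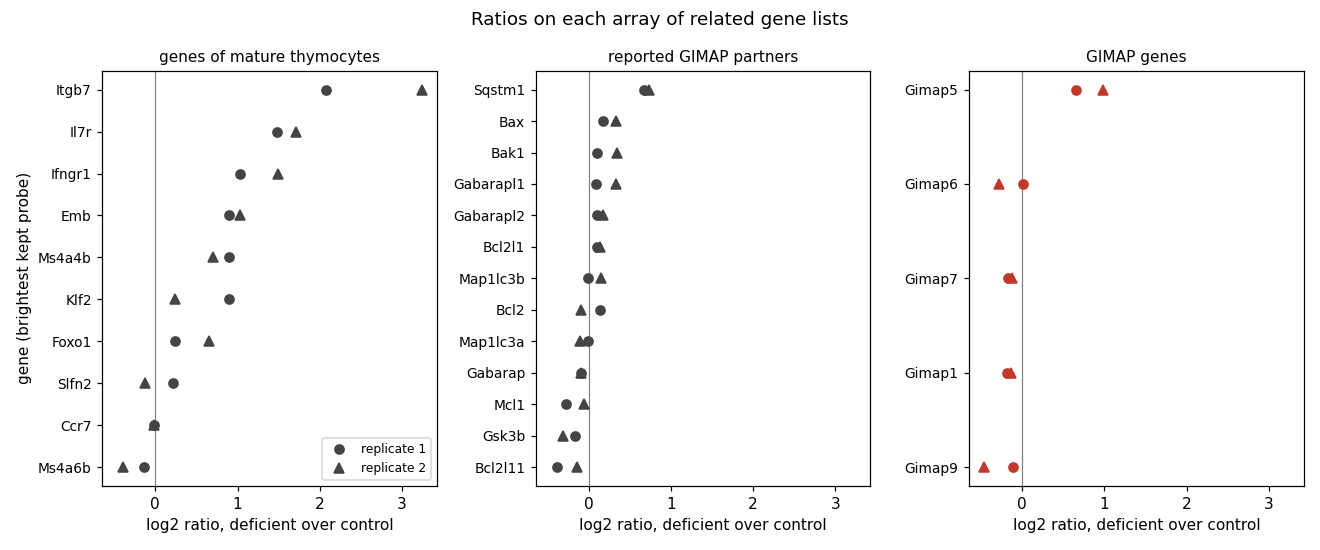
Log2 ratios of Bcl11b-deficient over TCRa-/- control on replicates 1 (circles) and 2 (triangles) for 10 of the 11 kept genes of mature thymocytes, the reported GIMAP partners and the GIMAP genes, each by its brightest kept probe. The mature thymocyte genes reach from -0.39 to 3.24, the partners from -0.39 to 0.74 and the GIMAP genes from -0.46 to 0.99.

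By distance over the 4 channel values (each gene centred on its own mean), the genes whose pattern was most like that of Gimap5 were Ttf2 (0.04 in log2 units), Rin3 (0.05) and Jdp2 (0.05). Their log2 ratios were 0.69 and 1.00 for Ttf2, 0.63 and 0.94 for Rin3, and 0.64 and 1.05 for Jdp2. With 4 samples of 2 genotypes, this likeness says little more than that the ratios are of one size.

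The labelled cell type and other cell types were checked by their markers. All 10 DP markers were kept, 3 higher on both arrays and 7 lower. Over all genes 36.4% were higher and 38.5% lower, shares that also stand beside the counts below. Dntt, the highest of the DP list, had 1.71 and 1.45, and Arpp21, the lowest, had -0.65 and -0.71. The summed processed signal of the DP markers was 285806 and 248429 in deficient cells, against 284650 and 249043 in control cells. With median centring 6 DP markers were higher and 3 lower, beside 55.0% and 23.5% of all genes. B cells and endothelial cells also express GIMAP genes. Of 8 B cell markers, 6 were kept, of which 3 read lower on both arrays and 0 higher, and the defining markers Cd79a and Ebf1 were not well above background in any sample. Their summed processed signal was 3502 to 4836 in deficient cells, against 4153 to 7355 in control cells. Of 8 endothelial markers, 4 were kept, with Pecam1 at 0.65 and 0.78 and the other 3 between -0.14 and 0.02 on average. Their summed processed signal was 708 and 712 in deficient cells, against 519 and 490.3 in control cells, and Emcn and Tek were not well above background in any sample. Of 8 NK markers 6 were kept, 4 higher on both arrays and 1 lower, with summed processed signals of 8361 and 9131 in deficient cells against 3823 and 3828 in control cells, and Gzmb was not well above background in any sample. Of 8 macrophage or monocyte markers 7 were kept, 5 higher on both arrays and 1 lower, with sums of 29567 and 30857 in deficient cells against 26615 and 10373 in control cells. In these bulk samples, other cells and expression of their marker genes in the thymocytes themselves cannot be told apart. Any part of endothelial, NK or macrophage cells in the Gimap5 ratio was not tested.

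The targeted gene read lower in the deficient cells by both probes on both arrays, by least at the brighter probe on replicate 2. The 2 Bcl11b probes gave log2 ratios of -1.40 and -0.28, and of -1.37 and -2.16, on replicates 1 and 2. Of 43379 spots that were not controls, 50.5% to 56.5% stood well above background in deficient samples, against 50.6% to 51.7% in controls. The number of arrays, 2, limits the precision of every value above. The SE is limma's moderated value, which pulls a probe's spread between arrays toward the spread over all kept probes. For Gimap7 the SD of the 2 ratios was 0.03 and the SE 0.07. For the brighter Gimap5 probe they were 0.23 and 0.11. Where the labels do not say that samples came from separate animals, the SE cannot be read as spread between animals.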

How the data were processed

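RNA of the 2 groups was hybridised to 2 arrays of a mouse oligonucleotide design, after linear amplification and ULS labelling per the labels' protocols. Agilent Feature Extraction 9.5.3.1 is named in the submitters' processing notes. The deposited mean and local background signals are intensity values without correction, and the deposited processed signals are intensity values corrected for background, spatial trend and dye. Per the file headers, log10 ratios of processed Cy5 to Cy3 were deposited, and the deposited value table differs from them by less than 0.005, with an array median of 0.

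Spots marked non-uniform or outlying were left out (108 and 116). Signals were corrected by normexp (offset 50), then normalised per array by loess with controls at weight 0, in limma 3.58.1 and statmod 1.5.0 under R 4.3.3. Spots of a probe were averaged. A probe was kept (21539 were) if either genotype was well above background on both arrays. Limma tested the mean of the 2 ratios against 0, with 1 residual degree of freedom and Benjamini-Hochberg adjustment over all kept probes (threshold 0.05). Log2 ratios are deficient over control, and a gene is represented by its brightest kept probe. SE values are limma's moderated ones, with a prior of 2.46 degrees of freedom fitted over all kept probes. A check on ratios simulated with the fitted spread asked only that planted sizes be returned on average, and bears on no result given here. Symbols came from RefSeq by systematic name (24375 probes), other accession (115), symbol (6234) or synonym (2391). Probe positions are mm8.

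All 8 members were named with all probes. Named besides were genes within 500 kb, up to 5 genes with the largest ratios of a list of reported partners and a list of mature thymocyte genes, and the 3 genes nearest to the member with the largest ratio. Gabarapl2, the other BCL2 family genes, Ccr7, Klf2, Ms4a6b, Pecam1, Dntt and Arpp21 were named in addition, after their values were seen. The values of 1 gene of the mature thymocyte list, which stays in its counts, are not reported here. Members and lists were chosen with earlier results of these data known. Alternatives were median centring, centring on the 500 probes nearest in intensity, processed signals, the value table, 2 other filters, separate-channel limma, a fit of 1 probe per gene, the mean of a gene's probes and leaving out each array.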

Additional observations from a re-analysis of the deposited data

How the results depend on the processing

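Loess on all kept probes called 0 probes. Median centring called 972, separate-channel limma 1231, 30 were called with processed signals and 17 with the value table, and the 5 other alternatives called 0. Median centring gave 4 members higher on both arrays and 1 lower, a family median of 0.23, and turned Gimap1 to 0.31, Gimap6 to 0.23 and Gimap9 to 0.094. Without the filter on dim probes 2 members, now of 7, were higher on both arrays, beside 37.8% of genes. The member added to Gimap5 was Gimap3, whose signal was not well above background in any sample. The brighter Gimap5 probe passed with median centring (1.06, limma adjusted p = 0.0469) and separate-channel limma (adjusted p = 0.0363), and its adjusted p was 0.0813 to 0.102 with the other alternatives that fit this probe. The mean of both Gimap5 probes had 1.12 (limma adjusted p = 0.0630). Gimap5 stayed positive under every alternative run. Leaving out 1 array left 1 to 2 members higher, 3 to 4 lower and a family median of -0.13 to -0.11, with Gimap5 at 0.66 to 0.99. One array leaves no residual degree of freedom, so these are values with no test. The cause of the shifts was not tested. The fit is itself paired, as each ratio sets the 2 genotypes of 1 replicate against each other, so no replicate block can be added to it. The dim probe of Gimap5 and that of Gimap7 are limited by signal over background, and ratios there depend on the background correction.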
